A study of Mus musculus with 36 samples.

Results

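At 6 h, the Ikaros and control lines of B3 mouse pre-B cells differed in DNase-seq signal at 305 of 52788 DNase hypersensitive sites (DHS). The signal was higher in the Ikaros line at 223 of them and lower at 82. Of the 223, 6 lie over coding exons of Ikzf1, whose bases the vector of the Ikaros line also carries. The comparison set the 3 Ikaros libraries labelled 6 h against the 3 control libraries labelled 6 h, 6 of the 36 libraries of the series, over all 52788 DHS of the deposited table. The spread between replicates was estimated from all 36 libraries, after the authors' noise correction. With the 6 libraries of 6 h alone, only 9 DHS were called. DNase-seq sequences the fragments released where DNase I cuts open chromatin, and each value is the log2 of the normalised read density in a DHS after the authors' noise correction. The Ikaros cells carried a retroviral vector that expresses Ikaros joined to ERt2, the hormone-binding part of the oestrogen receptor, together with green fluorescent protein (GFP). The control cells carried the same kind of vector with ERt2 and GFP but no Ikaros. Both lines had been treated for 6 h with 0.5 µM 4-hydroxytamoxifen (4-OHT), the drug that moves the fusion protein into the nucleus, so a difference between them is a difference between lines and not a change with time. Both derive from a single cell line and were sorted for GFP, and the replicates are separate inductions numbered 4, 5 and 6 rather than separate animals. The other 30 libraries held both lines at 0, 2, 12, 18 and 24 h, and cells of 0 h, per the methods, got no drug and came from a separate collection.

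Ikaros, encoded by Ikzf1, is a zinc-finger transcription factor of lymphoid cells. In pre-B cells it is known for lowering pre-B cell receptor genes and Myc as large cycling cells become small resting ones, and for opposing signals from the interleukin 7 receptor. It can bind both at active enhancers and at silenced genes, and it recruits chromatin remodelling complexes such as NuRD. Accessible DNA at promoters and enhancers is where such factors act, and DNase I maps it without naming the factor that is bound.

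The sequences below are those of narrow DHS, at most 200 bp wide, that were among the largest differences between the lines, and they are shown because their short spans hold the whole measured site. A narrow DHS in an exon of Cyren had a larger difference, but it overlaps an untranslated region of Tmem140 and is not printed. They were read from the plus strand of GRCm38 (mm10). Capitals mark matches, on either strand, to any of 11 short motifs listed with the motif results. The first 4 were higher in the Ikaros line and the next 5 lower.
Near Akr1b3, chr6:34272619-34272749: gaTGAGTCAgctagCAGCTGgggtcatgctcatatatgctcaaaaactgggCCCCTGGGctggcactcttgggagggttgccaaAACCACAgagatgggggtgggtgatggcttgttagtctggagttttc
Near Ebf1, chr11:45061862-45062019: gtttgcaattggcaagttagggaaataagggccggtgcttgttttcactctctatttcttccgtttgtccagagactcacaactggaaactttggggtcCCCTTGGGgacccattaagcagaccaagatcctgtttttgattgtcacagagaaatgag
Macrod2 intron, chr2:140819543-140819673: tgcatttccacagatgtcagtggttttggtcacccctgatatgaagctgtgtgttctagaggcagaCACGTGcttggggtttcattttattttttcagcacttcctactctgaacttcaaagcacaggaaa
Near Kctd6, chr14:8207178-8207308: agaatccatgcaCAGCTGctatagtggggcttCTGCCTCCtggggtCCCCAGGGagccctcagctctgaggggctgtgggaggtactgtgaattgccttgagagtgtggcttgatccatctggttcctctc
Near Ptprf, chr4:118337158-118337288: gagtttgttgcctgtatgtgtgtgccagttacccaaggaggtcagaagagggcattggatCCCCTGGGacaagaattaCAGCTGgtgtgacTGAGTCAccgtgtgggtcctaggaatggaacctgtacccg
Gm43586 promoter, chr6:70041000-70041130: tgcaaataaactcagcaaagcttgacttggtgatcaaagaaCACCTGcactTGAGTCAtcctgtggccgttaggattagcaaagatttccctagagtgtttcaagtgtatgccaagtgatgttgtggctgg
Near Xpr1, chr1:155472723-155472853: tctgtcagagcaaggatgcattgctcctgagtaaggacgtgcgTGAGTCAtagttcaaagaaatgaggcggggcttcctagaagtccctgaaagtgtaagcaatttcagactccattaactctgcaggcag
Near Gata5, chr2:180369406-180369541: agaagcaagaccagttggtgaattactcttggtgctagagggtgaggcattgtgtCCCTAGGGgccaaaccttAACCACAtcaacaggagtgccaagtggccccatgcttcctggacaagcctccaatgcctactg
Near Crisp1, chr17:40342575-40342716: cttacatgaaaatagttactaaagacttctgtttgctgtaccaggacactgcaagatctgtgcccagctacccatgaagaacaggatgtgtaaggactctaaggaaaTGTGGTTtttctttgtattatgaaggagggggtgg
The DHS over coding exon 6 of Ikzf1 is shown for another reason. Its capitals mark the coding bases, which the retroviral vector also carries, while the lower-case bases are intron. Ikzf1 is on the plus strand.
Ikzf1 exon, chr11:11758180-11758336: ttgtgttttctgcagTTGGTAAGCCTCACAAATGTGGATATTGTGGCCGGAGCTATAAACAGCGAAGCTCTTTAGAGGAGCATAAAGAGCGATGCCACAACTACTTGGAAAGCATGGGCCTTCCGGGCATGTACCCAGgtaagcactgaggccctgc
A match of the CCCNNGGG form lies in the DHS near Akr1b3, near Ebf1 and near Kctd6, and also in those near Ptprf and Gata5. TGAGTCA lies in 3 of the 5 lower DHS printed here (near Ptprf, near Xpr1 and at Gm43586) and in 1 of the 4 higher ones (near Akr1b3).

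Median values of the 36 libraries lay between 3.90 and 4.11. The table holds no counts, and while the methods state a minimum depth per replicate, the depth of single libraries is unknown. The labelled cell type showed in the promoter DHS, which lie within 1000 bp of a transcription start site: 10 of 12 pre-B marker genes had one, against 4 of 12 T cell, 3 of 12 myeloid, 2 of 7 erythroid and 0 of 6 muscle and neural markers. None of these marker promoters passed the test at 6 h. The correction had left the 12 group means in 6 of 11 possible dimensions, so the times are not independent of each other.

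Of 52788 DHS, 305 (0.578%) passed a limma adjusted p under 0.05, with 223 (0.422%) higher and 82 (0.155%) lower in Ikaros cells. In 304 of the 305 the 3 Ikaros values all lay on one side of the 3 control values. Over all DHS, the groups did not overlap in 11.1% with Ikaros above and in 10.9% with Ikaros below. The higher DHS had a median difference of 1.22 on the log2 scale, a 2.33-fold ratio, and ranged from 0.59 to 4.08. The lower DHS had a median of -0.96, a ratio of 1.95, and ranged from -0.57 to -1.60. Smaller differences were common but did not pass singly, with a median standard error of 0.285. An unadjusted limma p under 0.05 was found in 7263 DHS (13.76%). That is more than the cut-off would let through without any differences, if the p-values were exact. They may be too small after the noise correction, so the number of real small differences is not known.

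Each value given below for a DHS is that of 1 library, n is 3 in each line, and SE is the standard error of the limma difference. The fit took the spread left after the authors' noise correction as it stood, so SE and adjusted p may be too small. The number of calls depended on which libraries were in the fit. It was 162 without control replicate 5, 99 without Ikaros replicate 4, 52 without Ikaros replicate 5 and 38 without Ikaros replicate 6, and it was 9 (3 higher, 6 lower) when only the 6 libraries of 6 h were fitted. It was 579 (359 higher, 220 lower) without the 0 h libraries, with 304 of the 305 among them. Of the 40 called DHS that are named below, 2, 14 and 11 lost the call without control replicate 4, 5 or 6, and 15, 21 and 25 without Ikaros replicate 4, 5 or 6. With a whole replicate number left out of all groups, 20 lost the call without number 4, 37 without number 5 and 36 without number 6. Higher calls were 73.1% of the total here, 83.3% after quantile normalization, 85.0% after median centring, 62.0% without the 0 h libraries, 66.9% without replicate number 4 and 33.3% with only the 6 h groups. A core of 123 DHS (96 higher, 27 lower) was called under every alternative that kept the 36 libraries or dropped only those of 0 h. Of these, 4 were called also with any 6 h library or any replicate number left out: a pair of Ikzf1 exons, an exon of Gm48112 and an intron of Fli1.

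**Figure D1:**
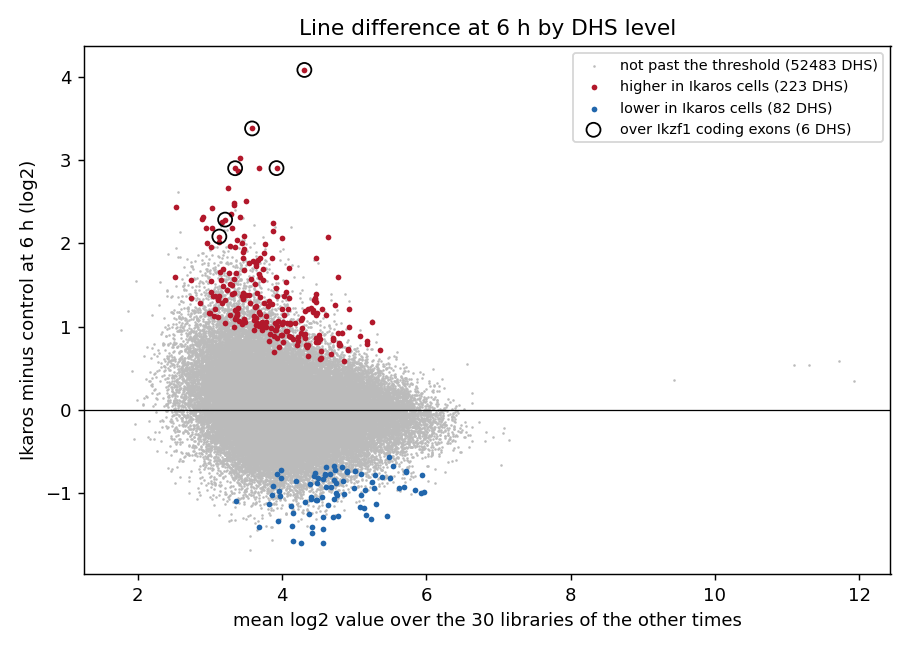
Each point is a DHS, with its mean log2 value over the 30 libraries of the other times on the x axis and the Ikaros minus control difference at 6 h (log2) on the y axis. Red points are the 223 DHS called higher, blue points the 82 called lower, and circles the 6 DHS over Ikzf1 coding exons. Lower calls lie further right than higher calls.

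The largest difference of all was in Ikzf1 itself (chr11:11685003-11772926). Its last coding exon (chr11:11768688-11769688) had values of 6.05, 6.42 and 6.55 in the Ikaros libraries and of 1.78, 2.85 and 2.14 in the control libraries. No control value came near an Ikaros one, and the difference was 4.08 (SE 0.32), a 17.0-fold ratio, with a limma adjusted p of 7.89e-09. The gene held 14 DHS. The 6 that overlap coding exons, which are exons 2, 4, 5, 6, 7 and 8 of the 8 in its longest coding sequence, were all called higher by 2.08 to 4.08, that is 4.24-fold to 17.0-fold. The 8 intronic DHS were not called, with differences from -0.51 to 0.94 and a smallest adjusted p of 0.106. No DHS lay at an Ikzf1 promoter.

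The printed exon 6 DHS shows the pattern in a short span. Its values were 5.02, 4.62 and 4.96 in Ikaros cells and 2.36, -0.11 and 2.21 in control cells, a difference of 3.38 (SE 0.55), with control replicate 5 far below the other control libraries. The exon 4 DHS (chr11:11748163-11748716) read 5.34, 5.64 and 5.34 against 2.45, 2.88 and 2.27, which is tighter within each line (difference 2.91, SE 0.27). An intronic DHS between coding exons 7 and 8 (chr11:11766209-11766368), by contrast, read 5.85, 5.84 and 5.52 against 5.60, 5.62 and 5.56, and the groups overlapped. The same 6 coding DHS were called at 0 h too, before the drug, with differences from 1.68 to 3.61. The vector carries these coding bases without the introns, so reads from the vector and reads from the gene cannot be told apart. Of the other Ikaros family genes, Ikzf2, Ikzf3 and Ikzf4 held no DHS and Ikzf5 held 1, with a difference of 0.28 that was not called.

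**Figure D2:**
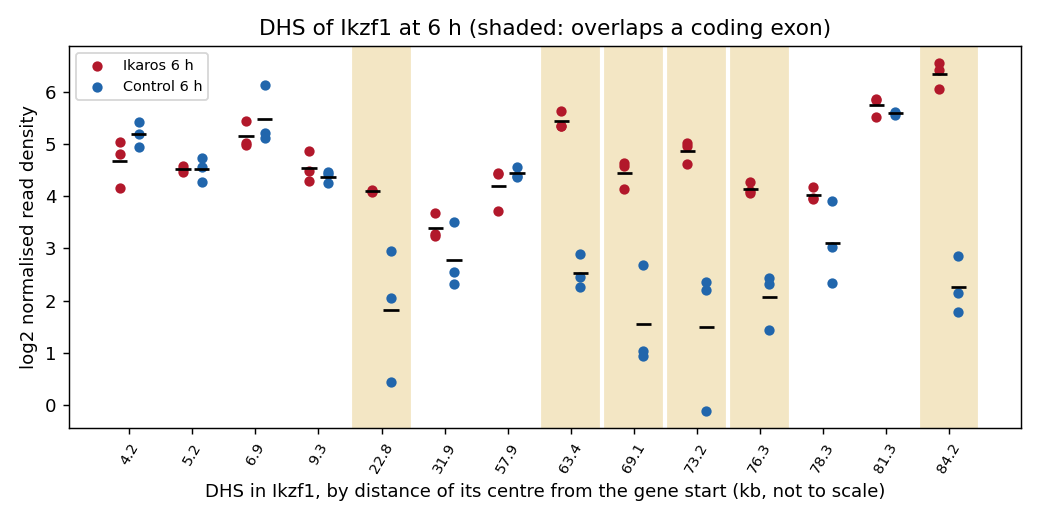
The 14 DHS of Ikzf1 in order along the gene, with the distance of each centre from the gene start on the x axis (kb, not to scale) and log2 normalised read density on the y axis. Red points are the 3 Ikaros and blue points the 3 control libraries of 6 h, bars are means, and shading marks the 6 DHS that overlap coding exons, where every Ikaros value is above every control value.

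Outside Ikzf1, the most raised DHS was an exon shared by Cyren, a regulator of DNA end joining, and Tmem140 (chr6:34874474-34874671). It read 4.54, 4.28 and 4.94 in Ikaros cells and 2.07, 1.40 and 1.23 in control cells, so the lines were well apart (difference 3.02, SE 0.42, adjusted p 0.000343). It had been called at 0 h as well, by 2.15. A further pair called under nearly every setting were an exon of Gm48112 (chr12:31154524-31155052) and an intron of Fli1, which encodes an Ets factor of blood cells (chr9:32425408-32425932). These were singled out after their values were seen. The Gm48112 DHS read 4.19, 4.25 and 4.40 against 2.43, 1.86 and 2.53 (difference 2.01, SE 0.23). The Fli1 DHS read 5.07, 5.07 and 4.82 against 3.25, 3.53 and 3.07 (difference 1.70, SE 0.21). In both, the replicates of a line lay within a narrow range, and both lost the call only when the other times were left out of the fit, at adjusted p of 0.102 and 0.0605.

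Next came narrow DHS in which the Ikaros values were close together and the control values spread widely. Near Akr1b3, the aldose reductase gene, the Ikaros libraries read 3.88, 3.97 and 3.89 and the control libraries 2.55, 0.28 and 0.22 (difference 2.90, SE 0.49). This DHS lay 44.7 kb from the start site and was not called at 0 h (0.04) or 24 h (0.56). The DHS nearest Ebf1, a factor that B cells need from the earliest stages, was 444.5 kb from the start site. It read 4.55, 3.82 and 3.83 against 2.24, -0.26 and 1.62 (difference 2.87, SE 0.49). An intron of Macrod2, an ADP-ribose hydrolase, read 4.16, 3.71 and 4.05 against 1.58, -0.27 and 2.63 (difference 2.66, SE 0.48). In all 3 DHS the lines did not overlap, and the SD (n = 3) was 1.30 to 1.47 in control cells and 0.05 to 0.42 in Ikaros cells. The DHS near Kctd6 (difference 2.51, SE 0.46) and in an intron of St5 (2.49, SE 0.56) were alike, with single control values of -0.05 and -0.26. Control replicate 5 was the lowest control library in 103 of the 223 higher DHS, and in 17898 of all 52788.

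In most of the lower DHS with the largest differences the control values lay closer together. Near Ptprf, a receptor tyrosine phosphatase gene (45.8 kb away), the Ikaros libraries read 3.83, 3.86 and 3.68 and the control libraries 5.05, 5.67 and 5.45 (difference -1.60, SE 0.36). Repeats cover 71.0% of this DHS. At the promoter of Gm43586, an annotated gene within the span of the immunoglobulin kappa genes, the values were 3.43, 3.96 and 3.97 against 5.62, 5.38 and 5.17 (difference -1.60, SE 0.27). It was lower at 0 h too, by 1.95. Near Xpr1, which encodes a phosphate exporter, the 3 Ikaros values of 3.48, 3.70 and 3.36 lay below control values of 5.17, 5.06 and 5.04 (difference -1.58, SE 0.27, adjusted p 0.00407). The DHS nearest Gata5 read 3.93, 3.96 and 4.04 against 5.24, 5.69 and 5.44 (difference -1.48, SE 0.24). At 0 h this one differed by -0.42 and was not called, and at 24 h it was called at -1.07. Near Crisp1, 3.53, 4.06 and 3.94 stood against 5.29, 5.18 and 5.35 (difference -1.43, SE 0.21, adjusted p 0.000843), and it was called at 0 h (-1.26) and 24 h (-1.36) as well. Other strongly lowered DHS, near Gm11214 and Parp11, in an intron of Inpp5f and at the Rpl38 promoter, ranged from -1.33 to -1.41, and in each the lines did not overlap.

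**Figure D3:**
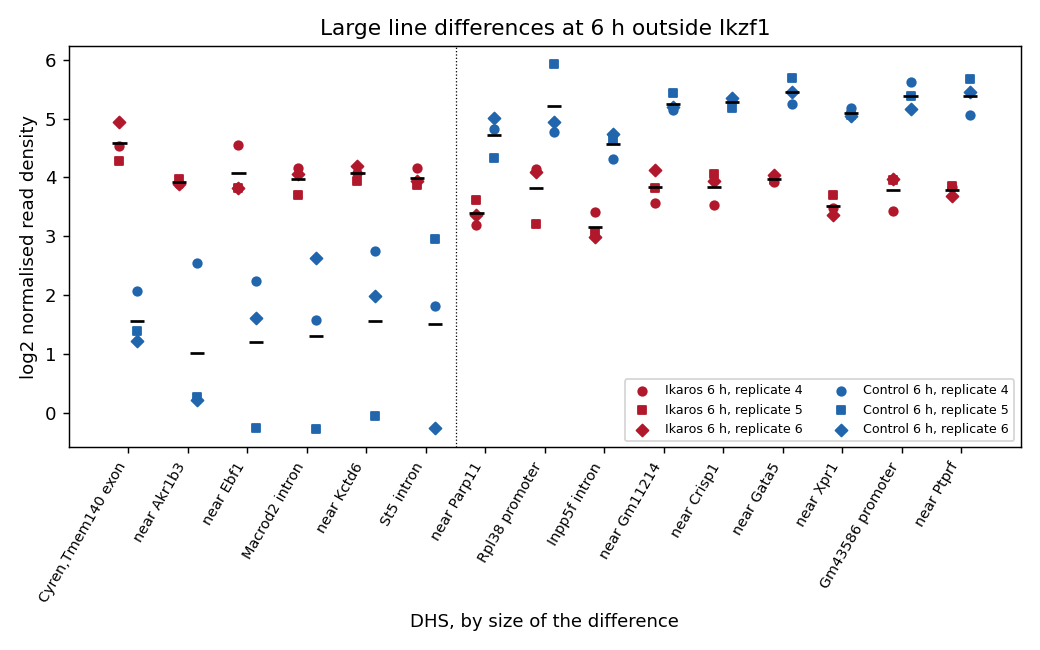
Log2 normalised read density (y axis) at 6 h of large differences outside Ikzf1, with the 6 raised DHS left of the dotted line and 9 lowered ones right of it. Red marks are Ikaros and blue marks control libraries, with 1 symbol per replicate number, and bars are means. Control values reach down to -0.27 in the raised DHS, 5 of which have a control SD of 1.30 or more, while the control SD of the lowered DHS is at most 0.62, at the Rpl38 promoter.

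Promoters made up 74 of the 223 higher DHS (33.2%) and 16 of the 82 lower ones (19.5%), against 25.9% of all DHS. The raised promoters with the largest differences belonged to chromatin and signalling genes as well as to genes with other roles. Abl1 encodes a tyrosine kinase of lymphoid cells, and its promoter DHS (chr2:31759771-31759941) read 4.40, 4.95 and 4.95 in Ikaros cells and 3.78, 3.19 and 3.17 in control cells (difference 1.39, SE 0.23, adjusted p 0.00375). The promoter of Rhog, a small GTPase gene, read 4.41, 4.41 and 4.28 against 2.89, 3.33 and 2.48 (difference 1.47, SE 0.30). Kdm2a, which encodes a histone H3 lysine demethylase, read 5.12, 5.45 and 5.62 against 4.03, 3.10 and 4.28 (difference 1.60, SE 0.30). In these promoters no control value reached the Ikaros range, and all 3 had been called at 0 h too, by 0.75 at Abl1, 1.48 at Rhog and 1.79 at Kdm2a.

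The other named raised promoters were those of Tet3, an enzyme that oxidises methylcytosine (2.18, SE 0.52), Rxrb and Slc39a7, a retinoid X receptor and a zinc transporter that share a start region (2.08, SE 0.41), Rrad, a small GTPase (2.00, SE 0.48), Kif7, a kinesin of the Hedgehog pathway (1.83, SE 0.39), and Cd36, a fatty acid receptor (1.60, SE 0.36). At Tet3 the Ikaros values were 3.98, 3.61 and 4.05 and the control values 2.47, 0.09 and 2.54, with control replicate 5 far below the rest. At Rrad the low library was control replicate 6, with 0.04 beside 2.94 and 2.91. With replicate number as a block the Rrad call was lost, at an adjusted p of 0.0629. Cd36 rose above the control range in every Ikaros library (3.39, 3.43 and 2.93 against 2.34, 1.14 and 1.47) and was called again at 24 h, by 1.65.

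Among lowered promoters, that of Tnf, the inflammatory cytokine gene (chr17:35201968-35202170), read 5.19, 4.76 and 5.01 in Ikaros cells and 5.94, 5.50 and 6.31 in control cells (difference -0.93, SE 0.20, adjusted p 0.0276). It was level between the lines at 0 h (0.00) and called at 24 h (-0.97). Rpl38, a ribosomal protein gene, read 4.14, 3.20 and 4.10 against 4.77, 5.92 and 4.94 (difference -1.40, SE 0.29), with replicate 5 furthest out in both lines. At neither promoter did the lines overlap, and repeats cover 58.8% of the Rpl38 DHS. The promoters of Lrp10, of the lipoprotein receptor family (-1.28), Fam84b (-1.03), Arl1, a Golgi GTPase (-1.02), Btn1a1, a butyrophilin (-0.82), and Faap20, of the Fanconi anaemia core complex (-0.78), were also called lower. Faap20 was the most even of them, at 5.58, 5.46 and 5.64 against 6.36, 6.37 and 6.29. The Btn1a1 call was lost with the replicate block, at an adjusted p of 0.0674.

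The question of how the 6 h difference relates to the other times was put to the same DHS. Of the 223 higher DHS, 206 (92.4%) were positive before the drug (0 h), and 207, 200, 221 and 219 after 2, 12, 18 and 24 h, while 59.2% to 75.0% of all DHS positive at 6 h kept their sign at another time. From the earliest to the latest of the 6 times, their median difference was 0.82, 0.52, 1.22, 0.54, 0.78 and 0.73. The 82 lower DHS were negative in 67 cases (81.7%) at 0 h. At 2, 12, 18 and 24 h they were negative in 79, 81, 82 and 82 cases. Of all DHS negative at 6 h, 68.3% were negative at 0 h and at most 69.6% at 2, 12, 18 or 24 h. All DHS positive at 6 h had a median 6 h difference of 0.28, and all DHS negative at 6 h of -0.25. Their shares are thus not matched to the larger differences of the called DHS, and the times are not independent of each other. The medians of the lower DHS were -0.38, -0.55, -0.96, -0.65, -0.77 and -0.82 in order of time. The members were chosen on their 6 h values, so the peak at 6 h is set by the choice. In the same direction, 120 of the higher DHS were called at 0 h, where 7.81% of all DHS were called higher, and 67 at 24 h, where 0.809% were. Of the lower DHS, 22 were called lower at 0 h (5.04% of all DHS) and 42 at 24 h (0.517%).

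**Figure D4:**
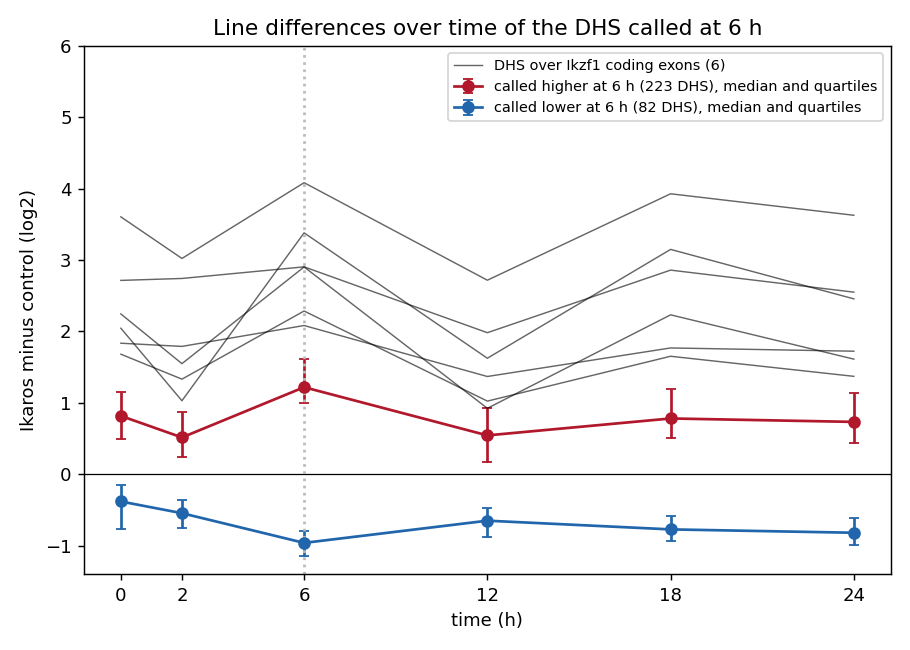
Ikaros minus control difference (log2, y axis) against time (h, x axis). Points and bars are the median and quartiles of the 223 DHS called higher (red) and the 82 called lower (blue) at 6 h, thin lines are the 6 DHS over Ikzf1 coding exons, and the dotted line marks 6 h, the time by which the DHS were chosen. The red median is above 0 and the blue one below 0 at all 6 times.

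No DHS passed the test of the difference at 6 h minus that at 0 h (0 of 52788, 0%, with 5960 at an unadjusted limma p under 0.05 and a smallest adjusted p of 0.138). Nor did any for 6 h minus 2 h (0%, with 2119 at an unadjusted p under 0.05 and a smallest adjusted p of 0.419). Leaving out 1 library gave up to 15 calls for 6 h minus 0 h (6 without control 0 h replicate 4, 15 without control 6 h replicate 4, 11 without Ikaros 0 h replicate 6) and up to 7 for 6 h minus 2 h (7 without control 2 h replicate 5, 6 without control 2 h replicate 6, 1 without control 6 h replicate 4). For 12 h minus 6 h, 1 DHS passed (0.00189%), near Slitrk6. With all libraries in the fit, none of the DHS named here was thus shown to differ between the lines more, or less, at 6 h than at 0 h or 2 h. The standard error of such a difference of differences had a median of 0.403, larger than the 0.285 of the 6 h difference. Within each line, from 0 h to 6 h, the 223 higher DHS went down in 201 cases in control cells (median -0.49) and in 145 cases in Ikaros cells (median -0.14), while 48.9% and 52.6% of all DHS went up. In the control line 7 of the 223 were called, of 15 called among all DHS (0.0284%). The 82 lower DHS went up in 78 cases in control cells (median 0.43) and down in 57 in Ikaros cells (median -0.12). These counts share the 6 h values by which the DHS were chosen.

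Level set the higher and lower DHS apart. By their mean over the other 30 libraries, the higher DHS had a median level of 3.74, the lower DHS of 4.67 and all DHS of 3.95. When DHS were split by level into 5 equal bins, the lowest bin held 67 higher and 1 lower call and the highest bin 21 higher and 43 lower. Among all DHS of the lowest bin the median difference was 0.23, and in the highest it was -0.06. Beside this stands a property of whole libraries: the SD over DHS was 0.693, 0.729 and 0.759 in the Ikaros libraries and 0.856, 0.982 and 0.963 in the control libraries. Every control library was more spread out (difference -0.21, two-sided exact permutation p = 0.1, the smallest that 3 against 3 can give), and the difference was -0.10 with narrow DHS left out. The part of that spread in the calls was not tested. Promoter DHS exceeded all other DHS by 0.642, 0.768 and 0.862 in Ikaros and by 0.619, 0.653 and 0.778 in control libraries, groups that overlap (difference 0.07, two-sided exact permutation p = 0.5). After quantile normalization that difference was 0.20 (exact permutation p = 0.1), and it was 0.02 without Ikaros replicate 6, 0.04 without control replicate 4, 0.13 without Ikaros replicate 4 and 0.12 without control replicate 6.

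By annotation, 79 higher and 29 lower DHS were intronic, which is 35.4% of each set and of all DHS. Intergenic were 51 higher (22.9%) and 32 lower DHS (39.0%), against 32.9% of all, and exonic 19 (8.5%) and 5 (6.1%), against 5.8% of all, the Ikzf1 exons included. DHS at most 200 bp wide gave 76 of the higher and 40 of the lower calls, out of 24315 that narrow. GC content was alike, with medians of 50.3% in the higher, 52.1% in the lower and 50.0% in all DHS. Repeats covered more than 50% of the bases in 0.4% of the higher DHS, 11.0% of the lower DHS and 5.5% of all DHS.

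The 11 motifs were searched on both strands as exact letters, with overlapping matches counted for each motif, and shares are given for DHS over 200 bp wide (147 higher, 42 lower, 28473 in all), since wide DHS hold more matches. TGTGGTT, a core bound by Runx factors, was in 30.6% of the higher, 9.5% of the lower and 15.1% of all DHS. CAGGAAGT, an Ets site, was in 14.3%, 2.4% and 7.4%. CCCNNGGG, the palindrome core of Ebf1 sites, which some CTCF and GC-rich sequences also match, was in 40.8%, 42.9% and 23.9%. In DHS of this width Runx letters were thus more frequent in raised than in lowered DHS, and Ebf1 letters were frequent in both, while the Ets share of the lowered DHS is that of 1 DHS. TGAGTCA, bound by AP-1 factors such as Junb, had the opposite lean to Runx, at 8.2%, 16.7% and 9.1%. TGGGAA, the core of Ikaros sites, was in 36.1%, 42.9% and 39.0%. The E protein letters CAGCTG were in 36.1%, 38.1% and 28.7%, and CAGGTG in 35.4%, 33.3% and 33.9%. The octamer part TTTGCAT was in 8.2%, 0 and 9.2%, TGTTTAC of Fox factors in 4.8%, 11.9% and 6.3%, CACGTG of Myc in 10.9%, 11.9% and 11.1%, and GGNGGCAG, a part of the CTCF motif, in 32.0%, 16.7% and 24.6%. In DHS of at most 200 bp, Runx letters were in 17.1% of the higher, 10.0% of the lower and 8.9% of all, Ebf1 letters in 15.8%, 25.0% and 10.0%, and Ets letters in 2.6%, 2.5% and 3.8%. These are shares without a test, and a match is no proof of binding.

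**Figure D5:**
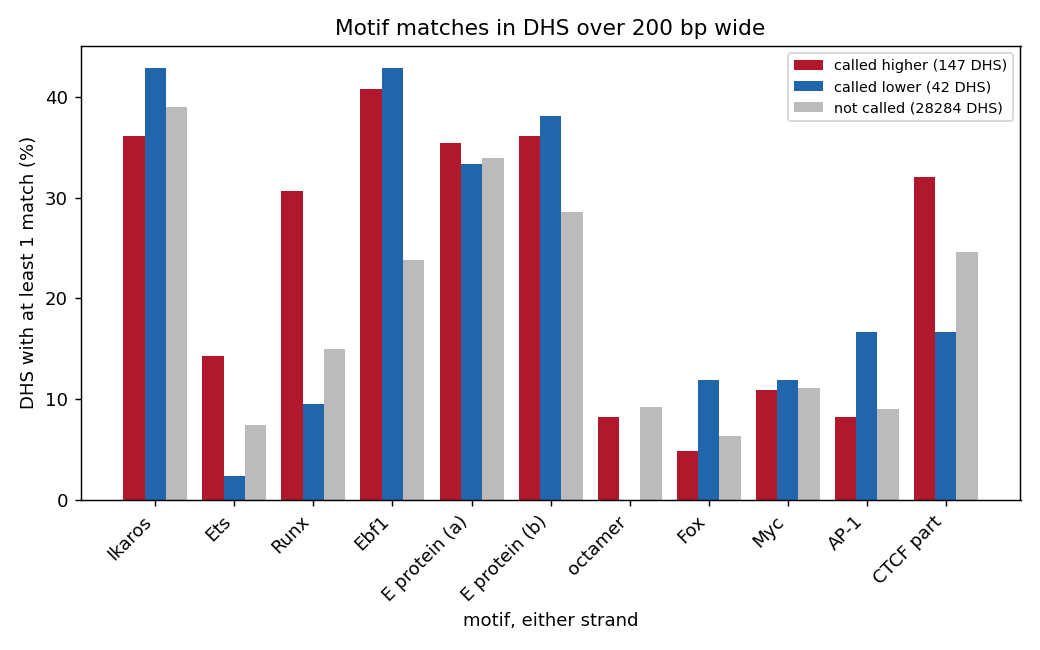
Share of DHS over 200 bp wide with at least 1 match to each motif on either strand (y axis, %), for DHS called higher (red), called lower (blue) and not called (grey) at 6 h. E protein (a) is CAGGTG and (b) is CAGCTG. Runx and Ets letters stand out in the higher DHS, at 30.6% and 14.3%.

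The genes that the study followed by RT-PCR were read at their promoters, and none of their 11 promoter DHS was called. Igll1, which encodes the lambda 5 part of the pre-B receptor (chr16:16863839-16864453), read 5.07, 4.91 and 5.04 in Ikaros cells and 5.43, 5.61 and 5.87 in control cells. The groups did not overlap, but the difference of -0.63 (SE 0.20) missed the threshold with an adjusted p of 0.145. At 0 h it was 0.09. Myc, the growth regulator, read 4.76, 4.71 and 4.80 against 5.10, 5.05 and 5.00 (difference -0.29, SE 0.14, adjusted p 0.361), again with no overlap. The Myc promoter was called higher at 0 h (0.42) and lower at 12 h (-0.65) and 24 h (-0.60), but not called at 2 or 18 h. Its change from 0 h to 6 h in the line difference, -0.71, did not pass (limma adjusted p 0.278). Slc7a5, an amino acid transporter (-0.21), Ldha, lactate dehydrogenase (-0.26 and -0.16 at 2 DHS), and Hk2, hexokinase (-0.24 and -0.10), were closer to level. Foxo1, a factor of resting cells, had 0.33 (SE 0.27) at 6 h. Before the drug, at 0 h, the Foxo1 difference was larger, at 1.08, and was called. The study titrated the enzyme on promoters it took as open (Ap2a1, Ikzf1 and Igll1) and as closed (the muscle genes Myog and Myod1). Of the open set, Ap2a1 had a promoter DHS at -0.31 (SE 0.24, adjusted p 0.599) and Igll1 is described above. Ikzf1, also in the open set, had no DHS in the table within 1000 bp of an annotated start site. Myod1 and Myog had no promoter DHS either. Lig4, a DNA ligase of V(D)J joining, shares 2 promoter DHS with Abhd13 that were level (0.05 and 0.00), and had another, narrow one at 1.77 (SE 0.54, adjusted p 0.123), in which control replicate 5 stood at 1.80 beside 3.78 and 3.82.

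Gene lists were described by their promoter DHS and by all DHS in or within 10 kb of the genes, and no promoter DHS of any list was called. Pre-B receptor genes (Igll1, the Vpreb genes, Cd79a and Cd79b) had 8 promoter DHS with a median difference of -0.16, and in 4 of them all Ikaros values lay below all control values. Genes of glycolysis had 26 with a median of -0.16, 8 below and 1 above without overlap. Interleukin 7 pathway genes had 16 with a median of -0.07, 5 below and 1 above, but the median turned to 0.06 after quantile normalization. Of 21 list medians, 9 moved by more than the spread between replicates under quantile normalization, 3 with narrow DHS left out and 1 under median centring. B lineage factors had 29 with a median of 0.12, 7 above and 2 below. Over all 13657 promoter DHS the median was 0.08, with 16.5% above and 9.5% below. The highest level bin of all DHS had a median of -0.06, with 9.75% above and 18.15% below. Median 6 h values in Ikaros and control cells were as high as that bin for promoters of glycolysis (4.82 and 5.07), pre-B receptor genes (4.92 and 4.88) and B lineage factors (4.91 and 4.69). The lists were not matched on level. The other lists had promoter medians from -0.17 (pre-B receptor signalling) to 0.52 (4 DHS of T cell markers), with few DHS in some: cell cycle 0.10, apoptosis 0.05, recombination 0.00, immediate early genes 0.04, class II MHC 0.06, adhesion and migration -0.11, PU.1 and Irf factors 0.11, T lineage 0.30, myeloid and progenitor -0.08 and erythroid -0.01.

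Beyond promoters, lists other than the Ikaros family held 4 called DHS, where 0.578% of all DHS were called. An intron of Bach2, a repressor that B cells use (chr4:32388059-32388189), read 4.08, 3.75 and 4.11 in Ikaros cells and 2.57, 2.74 and 2.08 in control cells (difference 1.51, SE 0.27, adjusted p 0.00538). It was 1 of 162 DHS of the B lineage factors, a share near that of all DHS. Flt3, a receptor of early progenitors, had an exon DHS (chr5:147340906-147341442) with 4.82, 4.90 and 4.87 against 3.86, 4.04 and 3.38 (difference 1.10, SE 0.18), called at 0 h (0.75) and 24 h (1.25) too. Immediate early genes, which respond fast to signals, had 1 called DHS in each direction among 79. The DHS 5.8 kb from the start of Nr4a1, a nuclear receptor induced by antigen receptor signals, read 4.76, 4.58 and 4.61 against 3.50, 3.91 and 3.95 (difference 0.86, SE 0.17). The DHS 2.4 kb from Junb, an AP-1 subunit, read 5.52, 5.76 and 5.74 against 6.75, 6.63 and 6.59 (difference -0.98, SE 0.20, adjusted p 0.0179), was level at 0 h (-0.09) and was called at 24 h (-0.83).

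Most lists had no called DHS, and the members with the smallest p in these lists included the following. The Cish promoter, of an inhibitor of cytokine signals that interleukin 7 induces, read 4.26, 4.16 and 4.52 against 4.87, 4.96 and 4.82 (difference -0.57, SE 0.15, adjusted p 0.0783), and it was called at 24 h (-0.74). An intron of Slc7a5 and Gm20388 read 4.40, 4.61 and 4.34 against 5.02, 5.04 and 4.89 (-0.54, SE 0.14, adjusted p 0.0573). The Spib promoter, of a factor close to PU.1, had 1.02 (SE 0.26, adjusted p 0.0631), and an intron of Dtx1, a Notch pathway gene, 1.22 (SE 0.31, adjusted p 0.0626). In these 4 DHS the lines did not overlap, and none passed. The Rb1 promoter led the cell cycle genes (0.81, adjusted p 0.0809) and an intron of Pik3r1 the pre-B receptor signalling genes (1.39, adjusted p 0.0891).

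With gaps under 50 kb, 39 of the 305 called DHS fell into 16 runs, and 6 of the 39 are the DHS over Ikzf1 coding exons. Of the runs, 15 were of one direction, where 73.1% of all calls were higher. How many would fall together by the spacing of all DHS was not worked out. The spans that follow were chosen after their values were seen, and the counts are descriptions. On the X chromosome, from Pcyt1b to Klhl15 (chrX:93674811-94235079), 18 of 20 DHS were positive and 5 were called, all at promoters: Pcyt1b (1.33), Pdk3 (0.92), Zfx (0.99), Eif2s3x (0.90) and Klhl15 (1.30). Klhl15 read 5.17, 5.04 and 5.27 in Ikaros cells and 3.61, 3.65 and 4.32 in control cells. The 20 had a median of 0.63, compared with 0.56 before the drug (0 h) and 0.70 after 24 h, and all 20 were positive at 12, 18 and 24 h. The other 1116 DHS of the X chromosome had a median of 0.00, with 1 called higher and 1 lower. At 0 h, without the drug, 15 of the 20 in the span were positive.

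In Tmtc1, which encodes a transmembrane O-mannosyltransferase, all 10 DHS were positive and 4 were called higher (3 with the replicate block, where chr6:148257753-148258253 had an adjusted p of 0.0572), the largest at 2.42 (SE 0.42, chr6:148331650-148331834), and the median was 1.06, compared with 0.61 for 0 h and 1.36 for 24 h. Tbc1d16, which encodes a Rab regulator, had 11 DHS, of which 10 were negative and 3 called lower, with a median of -0.61 both here and at 24 h and of -0.48 for 0 h. In both genes the median kept its sign at all 6 times.

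The medians of the immunoglobulin kappa locus did not keep their sign over time. Across this locus (chr6:67555481-70714650) 39 of 43 DHS were negative at 6 h, though only the Gm43586 promoter was called, and in 14 of the 43 all Ikaros values lay below all control values (10.9% of all DHS did). The median over its DHS was 3.41, 3.43 and 3.35 in the Ikaros libraries and 3.83, 4.09 and 3.83 in the control libraries, with no overlap. At 0 h, 43 of 43 were negative with a median difference of -0.75. At 2 and 6 h the median was -0.35 and -0.40, and at 12, 18 and 24 h it was 0.18, -0.23 and 0.06. The kappa medians were thus below 0 up to 6 h and of both signs later. The heavy chain locus (chr12:113314533-116003197) had 106 DHS, 78 of them positive and none called, with a median of 0.21. In 22 of them all Ikaros values lay above and in 6 below all control values (11.1% and 10.9% over all DHS). Its median was 0.08, 0.11, 0.21, 0.25, 0.22 and 0.26 in order of time and so kept its sign. Its library medians were 3.52, 3.59 and 3.39 against 3.31, 3.37 and 3.21, so its DHS were low. Low DHS leaned the same way in general. In the lowest level bin of all DHS the median was 0.23, with 16.58% above and 3.4% below without overlap. In the next bin it was 0.05, with 11.21% above and 7.29% below. Whether the heavy chain locus differs from other DHS of its level was not tested. Genes of these loci resemble each other, and the authors' alignment could drop some reads or place them on a related copy.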

How the data were processed

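DNase-seq was measured in 36 libraries of B3 cells, and the 6 h groups were taken from the labels. According to the methods, reads were trimmed and mapped by the authors to mm10 with Bowtie2, HOMER peaks of single replicates were merged into 1 list of DHS, reads were counted, low DHS were removed, and RPKM and TMM scaling and ARSyN, which models the groups and removes structured noise, were applied. The values are deposited on a log2 scale, and the base was settled from their size. Some Ikaros replicate 4 libraries were sequenced again. Since the depth of single libraries is not known, no counting intervals are given.

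Differences were fitted with limma 3.58.1 in R 4.3.3 (lmFit, eBayes with an intensity trend) with 12 group means over the 36 libraries, and p-values were adjusted by Benjamini-Hochberg over all DHS, with a threshold of 0.05. Single values per library were compared by exact permutation. The spread between replicates covers separate inductions of 1 cell line, and it is what was left after the authors' correction. The fit made no allowance for noise that ARSyN had already removed. Genes came from GENCODE vM21 basic and sequences from GRCm38. Coordinates are as deposited, and whether the start counts from 0 or 1 is open. The fit was tested on simulated data.

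Named were the 10 largest differences in each direction among called DHS without overlap between lines, the 8 largest at promoters of protein-coding genes, up to 3 for each other contrast, the DHS of Ikzf1 and of the study's marker and titration genes, and list members that passed or had the smallest p. An item that this rule names is not reported here. The lists were the Ikaros family, pre-B receptor, its signalling, interleukin 7 pathway, B lineage factors, PU.1 and Irf factors, recombination, cell cycle, glycolysis, apoptosis, immediate early, adhesion and migration, class II MHC, T lineage, myeloid and progenitor, erythroid, and muscle and neural genes. Members, lists and tests were chosen with earlier results of these data known.

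The labels tie each replicate number to a batch, so the numbers pair the samples. Same-numbered 6 h libraries deviated from their group means with correlations of 0.11 (replicate 4), -0.01 (5) and 0.10 (6) over DHS. Alternatives were the replicate block, quantile normalization, median centring, DHS filters, an offset, other limma settings, removal of trends, fewer groups and left-out libraries.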

Additional observations from a re-analysis of the deposited data

Results flagged for a closer look

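The DHS near Slitrk6 (chr14:110892992-110893121, 137.8 kb from the start site) was the only one to pass the test of a change in the line difference between 6 h and 12 h, with 3.01 (SE 0.48, limma adjusted p 0.0297). At 6 h it read 3.65, 3.53 and 2.93 in Ikaros cells and 4.37, 4.08 and 4.30 in control cells. At 12 h it read 4.04, 4.12 and 4.18 in Ikaros cells and 1.93, 1.81 and 2.22 in control cells, so the lines did not overlap at either time and had changed sides. Over the 6 times in order, the line difference was -0.67, 1.04, -0.88, 2.13, 1.30 and 1.84, and the 3 control libraries of 6 h were the highest of the 18 control libraries. The DHS passed in 8 of the 26 alternatives fitted for this contrast, with differences from 2.48 to 3.15. The cause was not tested.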

How the results depend on the processing

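The 305 calls at 6 h became 220 with the replicate block, which lost the calls of Rrad and Btn1a1 and 1 Tmtc1 intron and changed no other call of a named DHS. They became 496 with narrow DHS left out, 610 with a spread per group, 579 with the 0 h libraries left out (chosen after seeing the data) and 9 with only the 6 h groups. Left-out libraries or replicate numbers gave 6 to 455, with 130, 6 and 11 calls without replicate number 4, 5 or 6. For 6 h minus 0 h, the 0 calls became 5 with narrow DHS left out and 0 to 29 with libraries left out, and for 6 h minus 2 h they became 0 to 7. For 12 h minus 6 h, the 1 call became 0 under quantile normalization, with narrow DHS left out, with a spread per group, with trends removed and with the 0 h libraries left out, 2 under median centring, and 0 to 3 with libraries left out. Differences of DHS that were not called turned sign at an Hk2 promoter (0.031 under quantile normalization, and from -0.27 to 0.10 with libraries left out), the Foxo1 promoter (-0.11 with trends removed), and, with libraries left out, at the Lig4 promoters (from -0.061 to 0.094 and from -0.013 to 0.099) and at 2 Ikzf1 introns (from -0.13 to 0.13 and from -0.67 to 0.054). Of 40 named calls, 20, 37 and 36 were lost without replicate number 4, 5 or 6. With only the 6 h groups 33 were lost, with trends removed 9 and under quantile normalization 5, and none turned sign. Quantile normalization makes library SDs equal, so it gave no value for that comparison. The cause of these shifts was not tested beyond the smaller number of libraries or DHS. The 3 libraries per line and the unknown depth limit what could be detected.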
